A study of Danio rerio with 6 samples.

Results

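The cytosolic ribosomal protein genes were examined in whole zebrafish embryos that lack *dusp2* and *dusp6*. Members were taken by name, as every gene whose symbol starts with rpl, rplp or rps and a digit, or with rpsa, without the S6 kinases (rps6k). This gave 85 of the 23150 genes in the count table, 48 of the large ribosomal subunit by name and 37 of the small subunit. The rule looks at names alone, and some of the 85 do not belong to the ribosome or are barely expressed, as described where they appear.

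The study made strand-specific mRNA libraries from pools of whole embryos at 18 hpf, freed of chorion and yolk. The 3 mutant libraries (A, C and D) came from embryos of genotype dusp2um287/um287;dusp6um286/um286, the offspring of parents that were homozygous for both mutations, so neither parental nor embryonic copies were intact. The 3 wildtype libraries (A, B and C) carried dusp2+/+;dusp6+/+, and the study names Ekkwill as its wildtype line. Both genes encode dual-specificity phosphatases, enzymes that remove phosphate from MAP kinases such as ERK. Each mutant gene is represented by 1 allele, and mutant and wildtype embryos had different parents, so the effect of the mutations and that of family or line cannot be told apart. The labels do not say whether the libraries of a genotype came from separate pools, so p-values measure the spread between these libraries, which may be technical.

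Libraries held 36310355 to 45161306 counts. *dusp6* averaged 31.1 ± 2.25 CPM in mutant and 221.0 ± 8.23 CPM in wildtype libraries (CPM, counts scaled to a common library size with TMM factors, SD, n = 3 each). This is a log2 fold change of -2.83 (SE 0.059, edgeR quasi-likelihood adjusted p = 3.7e-10). *dusp2* had 3, 7 and 7 counts in mutant and 51, 35 and 71 counts in wildtype libraries, so both targeted genes went with the labels. All 11 markers of a whole embryo of this age (such as *myod1*, *sox10* and *krt4*) were detected. Among these markers 7 (63.6%, beside 17.4% of all tested genes) were called higher and 1 (9.09%, beside 17.1%) lower. Their summed level was 15204.5 to 18438.6 CPM in mutant and 10733.4 to 11211.7 CPM in wildtype libraries, most of it from the skin keratin gene *krt4* (16175.4 ± 1586.3 CPM in mutant and 10410.4 ± 224.5 CPM in wildtype libraries, SD, n = 3 each). Mutant library D stood apart: over all tested genes, its chi-square per degree of freedom was 12.7 and 15.5 against the other mutant libraries, compared with 3.62 to 5.56 between the other libraries that share a genotype.

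A ribosome is made of ribosomal RNA and one copy or so of each of a large number of ribosomal proteins, and its small subunit reads the mRNA while its large subunit joins the amino acids. The mRNAs of ribosomal proteins are among the most abundant of a growing embryo. They carry a 5′ terminal oligopyrimidine (TOP) tract, through which mTORC1 signalling controls their translation, so their mRNA level is only one of the layers at which they are regulated. Free Rpl5 and Rpl11, bound to 5S rRNA, are known to inhibit Mdm2 and thereby to stabilise p53 when ribosome assembly is disturbed.

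The 85 genes together took a similar part of the mRNA in both genotypes. Their share of all counts was 10.98, 11.13 and 10.02% in mutant libraries A, C and D, against 10.14, 10.62 and 10.82% in wildtype libraries A, B and C. The groups overlapped, because mutant D lay below all 3 wildtype libraries and mutant A and C above them. The means were 10.7 ± 0.607% in mutant and 10.5 ± 0.352% in wildtype libraries (SD, n = 3 each), a difference of 0.187 percentage points (two-sided exact permutation test, p = 0.6; the smallest p that 3 against 3 libraries allow is 0.1). Leaving out 1 library moved this difference between -0.0246 points (without mutant C) and 0.535 points (without mutant D). With the 231 most abundant non-members left out, members took 15.36, 15.65 and 14.12% of the remaining counts in mutant A, C and D. The wildtype values were then 13.97, 14.69 and 14.9%, so mutant D lay above wildtype A. The difference was 0.526 points (two-sided exact permutation test, p = 0.4). Large subunit genes took 6.563, 6.648 and 6.012% of counts in mutant libraries, against 6.055, 6.349 and 6.45% in wildtype libraries. Small subunit genes took 4.422, 4.487 and 4.004% in mutant libraries, against 4.08, 4.27 and 4.37% in wildtype libraries. The balance of the subunits overlapped as well, with 0.6738, 0.6749 and 0.6661 small subunit counts per large subunit count in mutant libraries and 0.6739, 0.6725 and 0.6775 in wildtype libraries.

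All 85 genes passed the filter on low counts and were tested, among 20021 genes in all. At an adjusted p under 0.05 in edgeR's quasi-likelihood test, 16 were higher in mutants and 2 were lower, while 67 did not pass. The 16 are 18.8% of the members, near the 17.4% called higher among all tested genes, whereas the 2 are 2.35% of the members, against 17.1% called lower among all tested genes. Among the 1933 genes averaging 100 CPM or more, a level that 82 members reach, 27.6% were called higher and 18.2% lower (45.8% in all). At an adjusted p under 0.01, 3 members were higher and 1 lower, against 10.1% and 9.73% of all tested genes. When libraries were scaled by their totals alone, 7 members were called higher and 3 lower, against 13.3% and 22.2% of all tested genes. DESeq2's Wald test called 17 members higher and 2 lower (15.7% and 14.8% of all tested genes), and limma-voom 18 and 2 (17.3% and 17.2%).

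The changes were small. No member passed the test with a fold change over 2, the size the study used for its calls, against 4.95% of all tested genes; 28 members (32.9%) had an unadjusted p under 0.05, against 44.7% of all tested genes, and DESeq2 and limma-voom also gave 0 members past that fold change. Fitted log2 fold changes ran from -0.25 to 0.38, and 48 of the 85 lay within 0.1 of 0. Of the fitted values 70 lay above 0 and 15 below, with a median of 0.07, against -0.0007 over all tested genes and 0.03 over genes with at least 100 CPM. The median was 0.07 for large subunit and 0.09 for small subunit genes. The SE of a log2 fold change had a median of 0.055 over the members, so shifts well under 2-fold could be measured in these genes.

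**Figure D1:**
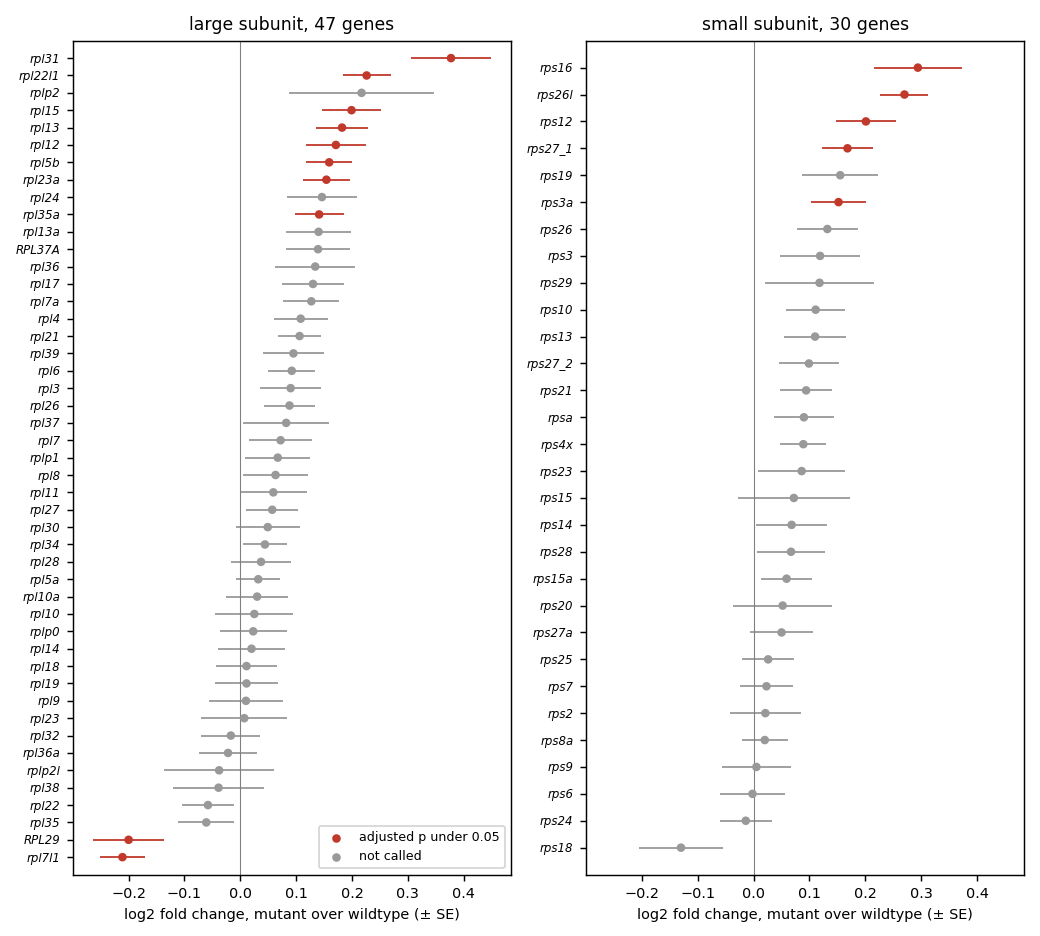
Log2 fold change (mutant over wildtype, point) with its SE (bar) for 47 large subunit and 30 small subunit genes of the 82 that average at least 100 CPM, ordered by size (5 genes, called ones among them, are not drawn), with genes called at an adjusted p under 0.05 in red. Most genes lie just above 0, the called genes *RPL29* and *rpl7l1* are lower in mutants, and none reaches a log2 fold change of 1 in size.

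The libraries of the genotypes can also be compared without a model. The 3 mutant libraries lay above the 3 wildtype libraries for 17 members and below them for 2, against 24.3% of all tested genes above and 24.8% below (49.1% in all). Of the 16 genes called higher, 14 showed no overlap, and 2, *rpl12* among them, did overlap.

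Of the large subunit, 9 genes were called higher. The largest rise of all members was that of *rpl31*, whose protein sits near the exit of the tunnel through which the new chain leaves. It had 1090, 1134 and 959.5 CPM in mutant libraries A, C and D, against 733.2, 863.0 and 855.4 CPM in wildtype libraries A, B and C. Every mutant library was above every wildtype library. The log2 fold change was 0.38 (SE 0.072, edgeR adjusted p = 0.00228), a ratio of 1.30.

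*rpl22l1* had 210.3, 223.1 and 212.3 CPM in mutant libraries, against 184.6, 178.8 and 188.6 CPM in wildtype libraries. It encodes a paralogue of Rpl22, and Rpl22 is known in mouse to hold down the *Rpl22l1* mRNA. The libraries of each genotype were close together and the groups were apart, with a log2 fold change of 0.23 (SE 0.043, edgeR adjusted p = 0.00216). *rpl13* had 1757, 1758 and 1723 CPM in mutant libraries and 1439, 1605 and 1571 CPM in wildtype libraries, a log2 fold change of 0.18 (SE 0.047, edgeR adjusted p = 0.011). Mutant D stood with the other mutant libraries for both genes.

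*rpl15*, mutated in some patients with Diamond-Blackfan anaemia in human, had 1524, 1493 and 1383 CPM in mutant libraries, against 1194, 1324 and 1316 CPM in wildtype libraries. Its groups did not overlap, and its log2 fold change was 0.20 (SE 0.053, edgeR adjusted p = 0.0133; not called without wildtype A).

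A further 4 large subunit genes called higher had log2 fold changes of 0.14 to 0.17. *rpl5b*, 1 of 2 zebrafish genes for the 5S rRNA partner Rpl5, averaged 1679.7 ± 55.7 CPM in mutant and 1504.5 ± 28.5 CPM in wildtype libraries (SD, n = 3 each). *rpl23a*, whose protein lies at the tunnel exit, averaged 1626.5 ± 34.6 CPM in mutant and 1461.6 ± 51.7 CPM in wildtype libraries. *rpl35a*, another Diamond-Blackfan anaemia gene in human, had 1019, 1025 and 1028 CPM in mutant libraries, against 894.1, 983.0 and 909.0 CPM in wildtype libraries. *rpl12*, a protein at the base of the stalk that recruits translation factors, had 1705, 1710 and 1511 CPM in mutant libraries and 1424, 1435 and 1517 CPM in wildtype libraries, so mutant D lay just below wildtype C. Of these 4, the calls of *rpl12* and *rpl35a* were each lost in 4 of the 6 fits that left out a library (wildtype A, mutant A and mutant C for both, wildtype B for *rpl12* and wildtype C for *rpl35a*), that of *rpl23a* in 2 (without wildtype A and without mutant C) and that of *rpl5b* in 1 (without wildtype C).

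Of the small subunit, 7 genes were called higher and none lower. *rps16*, whose protein reaches towards the tRNA in the P site, had 930.7, 921.5 and 753.3 CPM in mutant libraries, against 648.2, 728.7 and 748.8 CPM in wildtype libraries. Mutant D lay just above wildtype C, and the log2 fold change was 0.29 (SE 0.079, edgeR adjusted p = 0.0139). It was 0.38 without mutant D, and the call was lost without wildtype A or without mutant C.

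*rps26l* had 580.9, 571.4 and 590.1 CPM in mutant libraries, against 464.4, 503.7 and 477.1 CPM in wildtype libraries. Rps26 lies where the mRNA leaves the small subunit. The 3 mutant libraries were close to each other and above all wildtype libraries, with a log2 fold change of 0.27 (SE 0.043, edgeR adjusted p = 7.2e-04), the smallest adjusted p of any member.

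*rps12*, whose protein lies in the beak of the small subunit and takes part in cell competition in Drosophila, had 1062, 1007 and 1138 CPM in mutant libraries, against 899.1, 907.1 and 982.8 CPM in wildtype libraries. Mutant D, the lowest mutant library for most members, was the highest of the 6 libraries here. Its log2 fold change was 0.20 (SE 0.053, edgeR adjusted p = 0.0135; not called without wildtype A or without wildtype B). *rps27_1* and *rps3a*, for proteins on the platform of the small subunit, had log2 fold changes of 0.17 and 0.15. The calls of *rps27_1* and *rps3a* were lost without wildtype A, without mutant A and without mutant C, and also without wildtype B for *rps27_1* and without wildtype C for *rps3a*. With libraries scaled by their totals alone, *rpl5b*, *rpl12*, *rpl23a*, *rpl35a*, *rps3a*, *rps12* and *rps27_1* were not called.

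**Figure D2:**
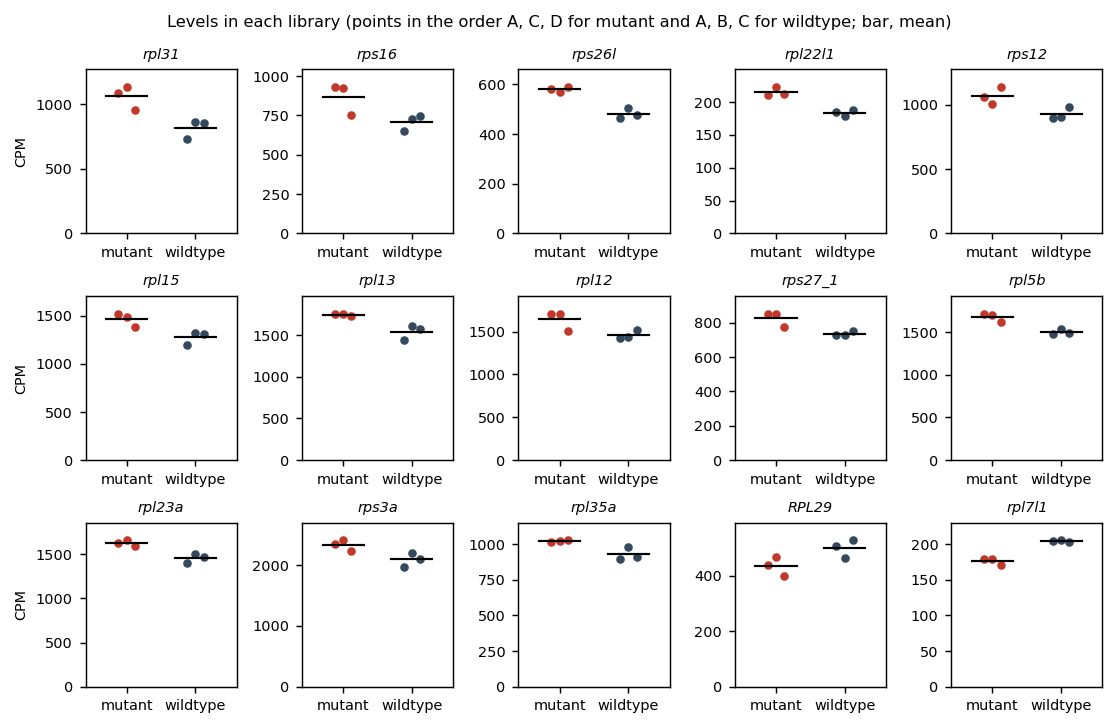
Level in CPM (axis from 0) of 15 called ribosomal protein genes, 1 panel a gene, with 1 point per library, a bar at the mean and mutant libraries left of wildtype libraries. In 12 of the 13 genes called higher that are drawn, all mutant points lie above all wildtype points (not in *rpl12*), and in *rpl7l1* all mutant points lie below.

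The 2 genes called lower were both named for the large subunit. *rpl7l1* had 179.0, 179.2 and 170.3 CPM in mutant libraries, against 204.0, 205.6 and 202.5 CPM in wildtype libraries. Its product is related to yeast Rlp7, a ribosome assembly factor, and it is not the main Rpl7 of the ribosome. The groups were well apart, the log2 fold change was -0.21 (SE 0.041, edgeR adjusted p = 0.00229), and it lay between -0.22 and -0.19 in every fit without 1 library. *RPL29*, whose loss is tolerated in mouse, had 439.4, 467.2 and 397.8 CPM in mutant libraries, against 506.9, 463.2 and 528.6 CPM in wildtype libraries. Mutant C lay above wildtype B, and the log2 fold change of -0.20 (SE 0.064, edgeR adjusted p = 0.0309) was not called without wildtype A, without wildtype C or without mutant A.

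The 67 members that did not pass include all 4 stalk genes, *rpl5a* and *rpl11*. *rplp0*, the base of the acidic stalk, had 3340, 3318 and 2937 CPM in mutant libraries, against 2927, 3209 and 3307 CPM in wildtype libraries, with a log2 fold change of 0.02 (SE 0.06, edgeR adjusted p = 0.795). *rplp2*, a stalk tip protein, had 199.7, 199.1 and 141.3 CPM in mutant libraries and 144.7, 139.2 and 180.8 CPM in wildtype libraries. Its log2 fold change was 0.22 (SE 0.13, edgeR adjusted p = 0.204), and 0.36 without mutant D (adjusted p = 0.00204). The other stalk genes, *rplp1* and *rplp2l*, had log2 fold changes of 0.07 and -0.04. *rpl11* had 1161, 1183 and 1012 CPM in mutant libraries, against 1018, 1093 and 1109 CPM in wildtype libraries, and its log2 fold change was 0.06 (edgeR adjusted p = 0.474).

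*rps6*, the small subunit protein that S6 kinases phosphorylate, had 2140, 2186 and 1899 CPM in mutant libraries, against 1964, 2104 and 2165 CPM in wildtype libraries. Its log2 fold change was -0.00 (edgeR adjusted p = 0.983), and values from -0.12 to 0.11 lay within 2 SE of it. *rps18* had 1047, 1113 and 872.0 CPM in mutant libraries and 1123, 1045 and 1150 CPM in wildtype libraries, with a log2 fold change of -0.13 (edgeR adjusted p = 0.212). The members with the highest CPM were *rpl4*, *rpl3*, *rplp0*, *rpl7a* and *rps2*, with log2 fold changes of 0.11, 0.09, 0.02, 0.13 and 0.02, none of them called. CPM grows with the length of an mRNA, so this is an order of reads and not of mRNA molecules.

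At the other end, 3 members had means under 100 CPM and none was called. *rps19bp1*, which encodes a protein that binds Rps19 and is no subunit of the ribosome, had 48.65, 50.2 and 51.86 CPM in mutant libraries, against 53.18, 60.96 and 52.43 CPM in wildtype libraries, with all mutant libraries lower (log2 fold change -0.14, edgeR adjusted p = 0.0946). *rps8b* had 38, 45 and 44 counts in mutant and 34, 23 and 47 counts in wildtype libraries. For *rps8b*, an SE of 0.26 on the log2 scale leaves even a sizeable change undetectable at this depth.

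The names of 16 members mark them as 8 pairs of related copies. RSEM splits reads shared by similar transcripts, and only *rps8b* of all members had whole counts in every library, so the split of a pair is less certain than its sum. As single genes, 49.1% of all tested genes did not overlap between genotypes, and shares were not computed for pairs of other genes. Within 6 of the 8 pairs the shares of the 2 genes did not overlap between genotypes. For each of these 6 the two-sided exact permutation test gave p = 0.1, the smallest it can give, and 0.13 after adjustment over the 8 pairs, so none could pass the threshold.

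For *rpl22* and *rpl22l1*, the second gene took 27.52, 27.87 and 28.99% of the pair's counts in mutant libraries, against 24.21, 24.34 and 24.37% in wildtype libraries. The pair's sum was 765.8 ± 34.2 CPM in mutant and 757.0 ± 20.2 CPM in wildtype libraries (SD, n = 3 each). The sum differed by less than its spread, while *rpl22l1* was called higher and *rpl22* had a log2 fold change of -0.06 (edgeR adjusted p = 0.369).

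For *rpl5a* and *rpl5b*, the second gene took 54.5, 54.48 and 53.22% in mutant libraries, against 52.28, 51.68 and 51.73% in wildtype libraries. *rpl5a* had a log2 fold change of 0.03 (edgeR adjusted p = 0.559). For *rpl7* and *rpl7l1*, the second gene took 6.84, 6.838 and 7.407% in mutant libraries and 8.709, 8.247 and 8.278% in wildtype libraries, as *rpl7* had a log2 fold change of 0.07 and *rpl7l1* was called lower. *rplp2l* took 81.19, 82.85 and 83% of its pair with *rplp2* in mutant libraries, against 84.84, 85.69 and 83.84% in wildtype libraries. *rps27_2* took 43.2, 44.11 and 42.83% of its pair with *rps27_1* in mutant libraries and 44.21, 44.6 and 44.9% in wildtype libraries.

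In 2 pairs the shares overlapped. *rps26l* took 59.31, 58.17 and 62.52% of its pair with *rps26* in mutant libraries, against 57.27, 58.57 and 57.08% in wildtype libraries, and the pair's sum was 968.6 ± 21.4 CPM in mutant and 835.6 ± 24.6 CPM in wildtype libraries. *rps26* alone had a log2 fold change of 0.13 (edgeR adjusted p = 0.0816). *rps8b* took under 0.1% of its pair with *rps8a* in every library.

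**Figure D3:**
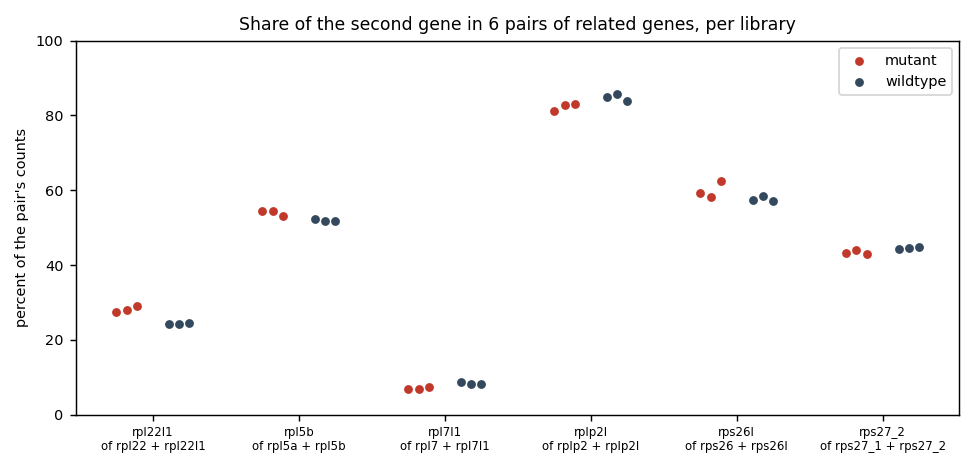
Share of the second gene in the summed counts of 6 pairs of related ribosomal protein genes, in percent from 0 to 100, with 1 point per library and mutant libraries left of wildtype libraries. In 5 pairs the genotypes do not overlap (*rpl22l1* and *rpl5b* take more in mutants, *rpl7l1*, *rplp2l* and *rps27_2* less), and in the *rps26* pair they do.

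The number of members that passed changed with single libraries. Relative to the wildtype mean, the median member stood at 0.1045, 0.1425 and -0.03452 (log2) in mutant libraries A, C and D, against -0.06034, 0.01807 and 0.03999 in wildtype libraries A, B and C. Mutant D was the lowest mutant library for 75 of the 85 genes and the lowest of all 6 libraries for 36 of them (42.4%), against 25.2% of all tested genes. Wildtype A was the lowest of all 6 for 41, and mutant C the highest for 54. For the counts of 75, 41 and 54 the shares over all tested genes were not computed. Whether they are particular to these genes is therefore not known. The largest gaps between mutant D and the other mutant libraries were those of *rplp2*, *rps15*, *rps29* and *rplp2l*, at -0.50, -0.44, -0.42 and -0.40 on the log2 scale.

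**Figure D4:**
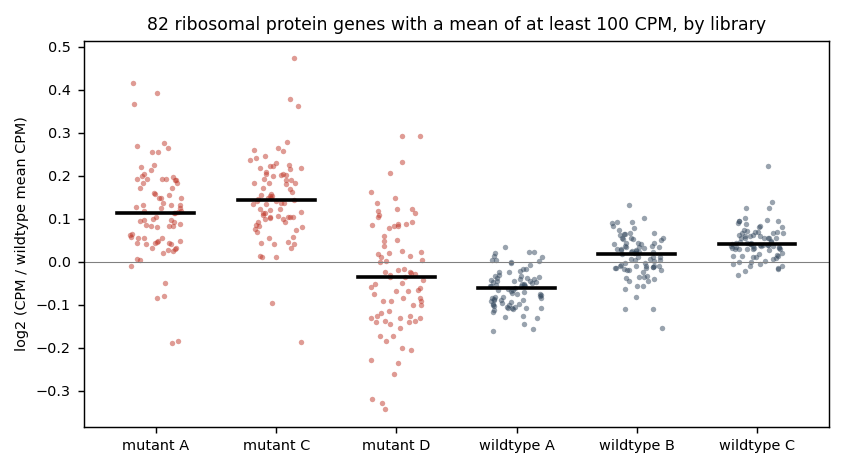
Log2 of CPM over the wildtype mean for the 82 ribosomal protein genes with at least 100 CPM, in each of the 6 libraries, with 1 point per gene and a bar at the median. Mutant A and C lie above the wildtype libraries, mutant D is spread widely around a median just below 0, and wildtype A is the lowest wildtype library.

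Without mutant D, 42 members (23 large and 19 small subunit, 49.4%) were called higher and 3 lower, against a background of 16.1% higher and 16.9% lower among all genes tested in that fit. The 42 include all 16 genes above, the 3 include *rpl7l1*, *RPL29* and *rps19bp1*, and the median log2 fold change was 0.12. Without wildtype A, 5 members were called higher (*rpl31*, *rps26l*, *rpl22l1*, *rpl13* and *rpl5b*) and 1 lower (*rpl7l1*), against 12.4% and 12.1%, and the median was 0.04. Without mutant C, 9 were called higher and 2 lower (13.9% and 13.7% of all tested genes). Both without wildtype C (12.6% and 12.5%) and without mutant A (15.6% and 15.3%), 11 were called higher and 1 lower. Without wildtype B, 15 were called higher and 2 lower (13.2% each). *rpl31*, *rps26l*, *rpl22l1*, *rpl13* and *rpl7l1* were called in each of the 14 other fits.

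Lists of differentiation genes and of early genes also differed between the libraries. Of 17 tested genes of the differentiation list, named late stage, 5 (29.4%) were called higher and 5 (29.4%) lower. Among all tested genes these shares were 17.4% and 17.1%. The directions went partly by tissue. The globin genes *hbbe1_1*, *hbbe3* and *hbae1*, *alas2* of haem synthesis and the troponin gene *tnnt3b* were higher, while the 5 lower genes all encode muscle proteins (*ttna*, *ttnb*, *acta1b*, *mylpfa* and *myhz1_1*). Most genes of the list are muscle genes, and its median per library was -0.2121, -0.211 and -1.166 (log2 over the wildtype mean) in mutant A, C and D, against 0.1262, -0.1296 and -0.01559 in wildtype A, B and C. The list's summed level, to which muscle genes contribute most, ran from 1097.7 to 1903.5 CPM in mutant and from 2080.7 to 2391.8 CPM in wildtype libraries. Of 13 early-stage genes 12 (92.3%) were called higher and none lower, beside 17.4% and 17.1% of all tested genes. This list shares a gene with the markers of a whole embryo of this age, so its name does not date the embryos. Medians of the early-stage list were 0.392, 0.4851 and 0.8134 in mutant A, C and D and -0.1303, 0.05252 and 0.06065 in wildtype A, B and C. Mutant D was the extreme library for both lists as well as the lowest mutant library for most ribosomal protein genes. Its medians were also the lowest for mitochondrial ribosomal protein (-0.2423), ribosome biogenesis (-0.1236), RNA polymerase I (-0.2243) and p53 target genes (-0.6937). Wildtype A, the library with the lowest median member, had the highest late-stage and the lowest early-stage median. The part that embryo age or cell composition plays in the ribosomal protein values was not tested. In such bulk samples, fewer cells of a type and less RNA per cell cannot be told apart. All 4 germ cell genes tested were called higher, beside 17.4% of all tested genes. Germ cell genes had summed levels of 21.2 to 32.7 CPM in mutant and 8.64 to 10.8 CPM in wildtype libraries. Yolk and liver-type genes were at 0.767 to 2.16 CPM in mutant and 0.566 to 1.02 CPM in wildtype libraries.

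The name rule leaves out 4 further genes for ribosomal proteins, of which 1 was called (25% higher, beside 17.4% of all tested genes). *gnb2l1*, the gene for the small subunit scaffold Rack1, averaged 2675.6 ± 134.3 CPM in mutant and 2381.8 ± 157.5 CPM in wildtype libraries (SD, n = 3 each). It was called higher, at 0.17 on the log2 scale (SE 0.055, edgeR adjusted p = 0.0346). *faua* and *faub*, whose products release the small subunit protein S30, had log2 fold changes of 0.18 and 0.17 and were not called.

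The mitochondrial ribosome is built from a separate set of nuclear genes. Of 72 tested mitochondrial ribosomal protein genes 1 was called higher and 38 (52.8%) lower, with a median log2 fold change of -0.19, beside 2.35% lower and a median of 0.07 for the cytosolic genes and 17.1% lower and a median of -0.0007 over all tested genes. The difference between the 2 lists' counts was not tested. *mrps26* averaged 14.9 ± 0.81 CPM in mutant and 23.0 ± 0.643 CPM in wildtype libraries (SD, n = 3 each). *mrpl28* averaged 37.3 ± 0.655 CPM in mutant and 50.0 ± 1.76 CPM in wildtype libraries. Within each library the median cytosolic member minus the median mitochondrial gene was 0.2514, 0.2968 and 0.2077 (log2, each over its wildtype mean) in mutant A, C and D, against -0.07, 0.01058 and 0.04768 in wildtype A, B and C. The value was above those of all 3 wildtype libraries in mutant D as in the other mutant libraries.

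Assembly of ribosomes takes place largely in the nucleolus. Of 98 tested ribosome biogenesis genes 8 were called higher and 37 (37.8%, beside 17.1% of all tested genes) lower, with a median log2 fold change of -0.10. *noc2l*, a nucleolar factor, averaged 150.3 ± 2.29 CPM in mutant and 204.0 ± 7.78 CPM in wildtype libraries, while *rrp7a*, of small subunit rRNA processing, averaged 46.4 ± 1.7 CPM in mutant and 28.3 ± 2.19 CPM in wildtype libraries (SD, n = 3 each). Of 13 genes of RNA polymerase I, which transcribes ribosomal RNA, 1 (7.69%) was called higher and 4 (30.8%) lower, beside 17.4% and 17.1% of all tested genes. The higher gene was *ubtf* (log2 fold change 0.18), and the lower ones included *cd3eap* (-0.84) and *TAF1C* (-0.63).

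A list of genes whose mRNAs share the TOP tract, most of them translation factors, moved in both directions. Not all are translation factors, also among those called. Of 16 tested, 5 (31.2%) were called higher and 2 (12.5%) lower, beside 17.4% and 17.1% of all tested genes. The median log2 fold change of the 16 was 0.03. *eef1a1l1*, for the elongation factor that brings tRNA to the ribosome, averaged 22920.4 ± 221.9 CPM in mutant and 17391.2 ± 1005.7 CPM in wildtype libraries (SD, n = 3 each), while *eef1b2*, its exchange factor, averaged 450.1 ± 19.6 CPM in mutant and 633.7 ± 16.3 CPM in wildtype libraries. Of 10 S6 kinase genes by name none was called higher and 2 (20%) lower, beside 17.4% and 17.1% of all tested genes. The 2 were *rps6kb1a* (9.14 ± 0.462 CPM in mutant and 11.4 ± 1.18 CPM in wildtype libraries, SD, n = 3 each) and *rps6kl1*. *rps6kl1* averaged only 0.837 ± 0.158 CPM in mutant and 1.5 ± 0.0496 CPM in wildtype libraries. The summed level of the S6 kinase list, most of it from genes not called, ran from 308.5 to 322.6 CPM in mutant and from 297.8 to 302.3 CPM in wildtype libraries.

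Of 11 tested p53 target genes, the readout to which free Rpl5 and Rpl11 are linked, none was called higher and 9 (81.8%) lower. Among all tested genes 17.4% were called higher and 17.1% lower. *mdm2* averaged 68.4 ± 5.97 CPM in mutant and 114.9 ± 26.5 CPM in wildtype libraries, and *cdkn1a*, an inhibitor of the cell cycle, 7.59 ± 0.68 CPM in mutant and 13.8 ± 2.83 CPM in wildtype libraries (SD, n = 3 each). The list's median per library was -0.4601, -0.589 and -0.6937 (log2 over the wildtype mean) in mutant A, C and D, against 0.152, -0.06421 and -0.1022 in wildtype A, B and C, so the genotypes did not overlap.

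**Figure D5:**
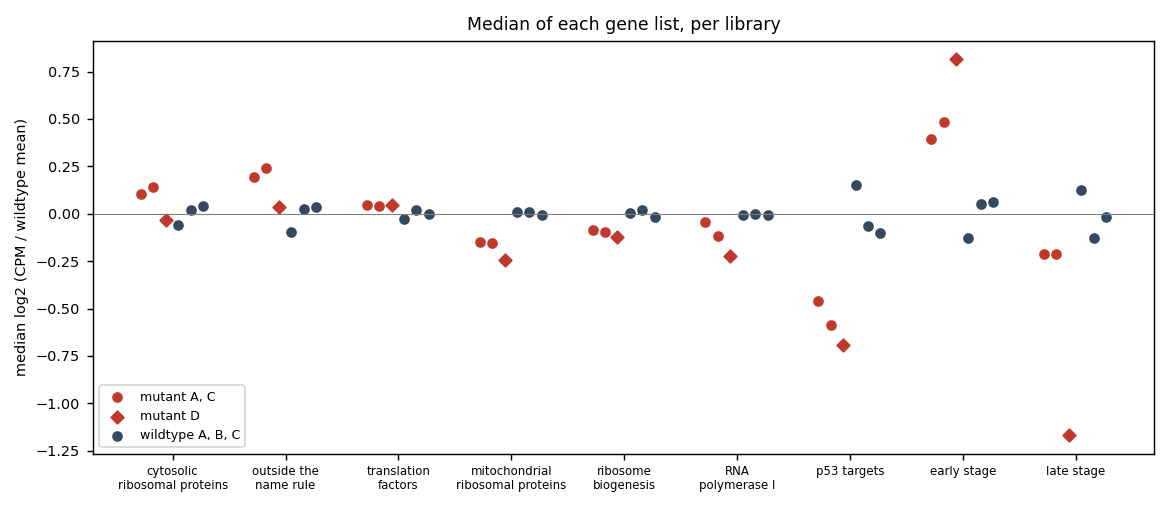
Median level of each gene list per library, as log2 of CPM over the wildtype mean, with mutant libraries left of wildtype libraries and mutant D drawn as a diamond. The list marked translation factors also holds other genes with TOP mRNAs. Cytosolic ribosomal protein genes lie above the wildtype libraries in mutant A and C, with mutant D among the wildtype libraries. Mitochondrial ribosomal protein and ribosome biogenesis genes lie lower in all 3 mutant libraries. Mutant D is farthest out for the mitochondrial ribosomal protein, ribosome biogenesis, RNA polymerase I, p53, early-stage and late-stage lists.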

How the data were processed

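Total RNA of embryo pools was made into stranded polyA-selected libraries (TruSeq). The authors checked reads with FastQC, aligned them to the DanRer7 transcriptome with RSEM (1.2.28 in the submitters' processing notes), filtered out ribosomal RNA and deposited RSEM's expected counts for each gene, without normalization. The deposited table also holds the authors' DESeq2 comparison (fold changes, p-values and adjusted p-values), which was not used, and 0 further columns of per-library values. Columns name genotype and a letter, and were mapped to genotype only.

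The expected counts, which can be fractional, were rounded first. Low genes were removed with filterByExpr, which left 20021 of 23150, scaled by TMM and compared with edgeR 4.0.16 (estimateDisp, glmQLFit, glmQLFTest) in R 4.3.3, with Benjamini-Hochberg adjustment over all genes tested. The SE is the size of the log2 fold change divided by the square root of F. Shares of counts were compared by two-sided exact permutation over libraries, that of the members also without the 1% most abundant non-members. Members and lists were chosen with earlier results of these data known. Of the members, 75 matched the table of gene symbols and 83 a RefSeq symbol or synonym.

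Named genes were the targeted genes, all members of related pairs, the 10 largest called rises and falls, the 5 members with most and fewest reads, and up to 4 called genes of each list with the smallest p. Other members were named after their values were seen, namely the stalk, 5S partner, *rps6*, *rps18*, *rps15* and *rps29* genes, the remaining called members, *faua*, *faub*, *krt4* and the called late-stage genes. A few genes counted in the totals are not reported by name here. Levels per coding length were not computed, so levels of different genes are not compared. Alternatives were DESeq2's size factors, upper-quartile scaling, library totals, scaling without the members, DESeq2 1.42.0's Wald test, limma-voom (limma 3.58.1), 2 other filters, an adjusted p under 0.01 and leaving out each library. Results without the 3 members under 100 CPM were added after seeing the data. The fit was tested on simulated counts.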

Additional observations from a re-analysis of the deposited data

How the results depend on the processing

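The number of members called higher (16) was 7 when libraries were scaled by totals alone and 3 at an adjusted p under 0.01, where 1 was called lower in place of 2. It ranged from 5 to 42 when 1 library was left out, and the number called lower from 1 to 3. With DESeq2's Wald test 17 were called higher, and with limma-voom 18, with 2 lower in each. The median log2 fold change of the members stayed above 0 in every fit, from 0.02 with library totals to 0.12 without mutant D. No member passed with a fold change over 2 under any alternative run. Over the named genes followed through the alternatives, 458 values stayed on their side of the threshold, 47 left the called set, 11 entered it and no called value was reversed. No paired analysis was possible because the columns carry no replicate number from the labels. Removing the 3 members under 100 CPM, which was chosen after seeing the data, left 16 called higher and 2 lower. Depth limits the least abundant members, *rps8b* among them. For the others the number called depended on the spread between 3 libraries. Called higher were 42 members without mutant D, but only 5 without wildtype A.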
